A study of Mus musculus with 12 samples.

Results

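The transcripts of Polycomb repressive complex 1 (PRC1) RING and PCGF subunits were followed through the conversion of mouse embryonic stem cells (mESCs) from serum to 2i medium. The genes were listed by name: the RING subunits Ring1 and Rnf2, the PCGF subunits Pcgf1, Pcgf2, Pcgf3, Bmi1, Pcgf5 and Pcgf6, and Kdm2b, the partner that recruits the PCGF1 complex to CpG islands. These 9 genes, each with 1 Ensembl identifier, were drawn from 39017 genes in the count table, and all 9 were among the 17885 genes that passed the filter on low counts. Poly(A)-selected, stranded RNA-seq was available for 12 libraries in 4 groups of 3 biological replicates. Wild-type cells were the male line J1. Cells of the line 3B3L (3B3-3l) are Dnmt3a-/- and Dnmt3b-/- and express Dnmt3b and Dnmt3l from transgenes driven by the ubiquitous CAG promoter, which keeps their DNA methylated in 2i. Both lines were grown with the cytokine LIF, either in serum or in serum-free 2i medium with the MEK inhibitor PD0325901 at 1 uM and the Gsk3 inhibitor CHIR99021 at 3 uM. In serum J1 cells grew on SNLP feeder cells, which were depleted before harvest, and 3B3L cells grew on gelatin, so the line and the culture surface cannot be told apart in serum. Feeders were also depleted for the conversion to 2i. The medium and the loss of feeders thus cannot be told apart in J1, nor in the difference of the 2i response between the lines.

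PRC1 ubiquitinates histone H2A. Its catalytic core is a RING subunit, RING1A from Ring1 or RING1B from Rnf2, paired with 1 of the PCGF proteins, and the PCGF protein decides which complex is built. PCGF2 (MEL18) and PCGF4 (the product of Bmi1) join CBX and PHC proteins in canonical PRC1, which binds the histone mark laid by PRC2 and compacts chromatin, whereas PCGF1, PCGF3, PCGF5 and PCGF6 form variant complexes with RYBP or YAF2. In mESCs DNA methylation is globally low in 2i and high in serum, and Polycomb marks are redistributed between both media.

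The libraries held 37050652 to 44515395 estimated reads, and a count of 3 reads in a library corresponded to 0.0684 to 0.0813 CPM (counts scaled to library size). The labels were checked first. Dnmt3b stood at 413 ± 12.2 CPM in J1 serum and 44.1 ± 3.12 in J1 2i (SD, n = 3), against 891 ± 32.0 and 928 ± 12.7 in 3B3L serum and 2i, and Dnmt3l in 3B3L 2i was 290 ± 4.57 CPM against 52.8 ± 4.26 in J1 2i. Dnmt3a, deleted in 3B3L, stood at 166 ± 0.785 CPM in J1 serum and 41.5 ± 2.78 in J1 2i, and reads of it remained in 3B3L, at 32.1 ± 2.50 and 4.67 ± 0.585 CPM. The counts cover the whole gene, and the deleted part was not examined apart. The defining mESC markers were present in every group, with 7 of them summing to 3365 to 4559 CPM. The 12 fibroblast markers summed to 62.0 to 65.3 CPM in J1 serum and 76.9 to 87.8 in 3B3L serum, against 24.3 to 25.7 and 11.8 to 12.2 CPM in 2i, with Dcn and Lum at 0 in every 2i library. Of the 9 fibroblast markers tested, 8 were lower in 2i in each line. The other, Pdgfrb, rose in J1 from 6.31 to 19.4 CPM (log2 1.62, edgeR adjusted p = 5.85e-10) and so made up most of the J1 2i sum. In 3B3L it was not called (7.39 and 7.33 CPM). The 7 primitive endoderm markers were all higher in 3B3L than in J1 in serum (median log2 1.04), where they summed to 144 to 146 against 103 to 118 CPM, and 4 of them had a lower 2i response in 3B3L. In 2i they summed to 175 to 195 CPM in J1 and 140.3 to 143 in 3B3L. Lama1 made up most of these sums, at 109 CPM in J1 serum, 180 in J1 2i, 137 in 3B3L serum and 135 in 3B3L 2i. Under 1 CPM in every library were 5 of the 7 in J1 serum, 5 in J1 2i, 2 in 3B3L serum and 4 in 3B3L 2i. The 5 trophoblast markers summed to 6.07 to 7.54 CPM in serum and 2.94 to 4.65 in 2i. The part of such RNA in the values below was not tested.

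Conversion to 2i changed 7 of the 9 genes in J1 (5 rose, 2 fell) and 8 of 9 in 3B3L (5 rose, 3 fell; edgeR quasi-likelihood test, adjusted p under 0.05 over all tested genes). Among all tested genes 66.1% were called in J1, 33.2% upwards and 32.9% downwards, and 65.4% in 3B3L, 32.7% in each direction. Whether calls were more frequent among these 9 genes was not tested. The libraries of both media did not overlap for 7 of 9 genes in J1 and 8 of 9 in 3B3L, beside 68.7% and 69.6% of all tested genes. The count in 3B3L was less firm than that in J1. It was 4 to 8 on leaving out 1 library, and 5 with a replicate block or either other filter on low counts. The median log2 fold change of the 9 genes was 0.23 in J1 and 0.12 in 3B3L, beside 0.01 and 0.01 over all genes. Without regard to sign, the median change was 0.23 in J1 and 0.24 in 3B3L, beside 0.44 and 0.43 over all tested genes. The latter include genes at low counts, whose estimates scatter more, and genes of like level were not compared. Bmi1 rose most in both lines and Pcgf1 came next. Pcgf2 was not called in either line, and Pcgf5 was called in 3B3L but not in J1. In bulk RNA, fewer cells with a transcript and less transcript per cell cannot be told apart.

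**Figure D1:**
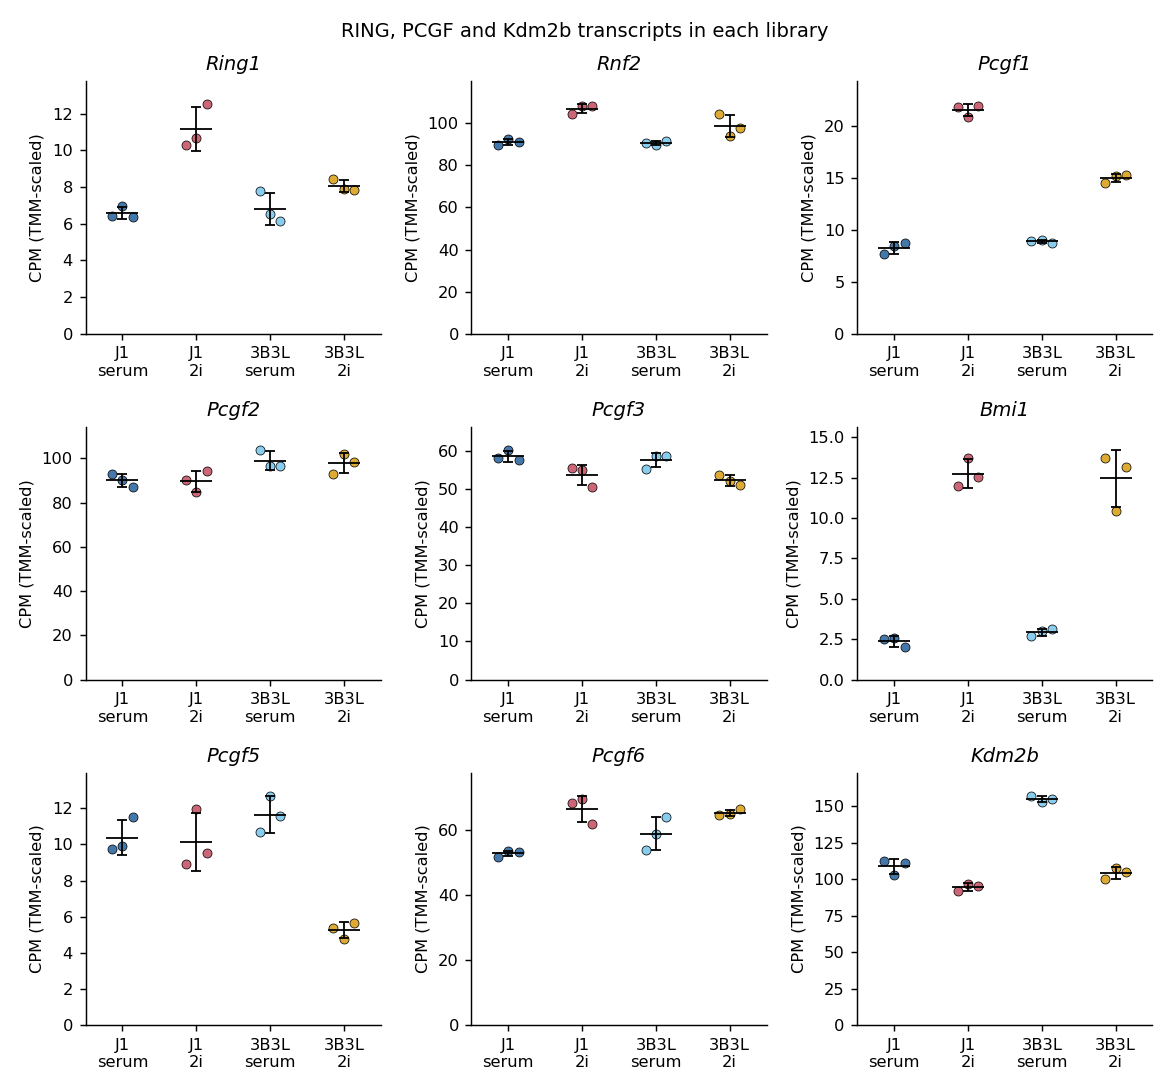
CPM of each gene (y axis, scaled by the TMM library sizes and starting at 0) in the 12 libraries, grouped by line and medium; points are libraries, horizontal bars the mean and error bars the SD of 3 replicates. Bmi1 separates serum (2.01 to 3.12 CPM) from 2i (10.4 to 13.7 CPM) in both lines, while Pcgf5 is lower only in 3B3L 2i (4.75 to 5.65 CPM).

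To compare levels between genes, CPM was divided by the effective transcript length that the authors' quantification gave (RPKM). In J1 serum the order was Pcgf2 (61.4 ± 2.42), Kdm2b (42.9 ± 0.275), Rnf2 (31.8 ± 0.477), Pcgf6 (27.4 ± 0.391), Pcgf3 (12.4 ± 0.750), Pcgf1 (11.1 ± 0.722), Pcgf5 (7.47 ± 0.709), Ring1 (3.98 ± 0.831) and Bmi1 (1.63 ± 0.460), and no pair of neighbours in this order overlapped. In J1 2i Pcgf1 stood at 29.3 ± 0.108 RPKM, above Pcgf3 at 10.7 ± 0.974, and Bmi1 at 8.23 ± 1.13 RPKM had left the last place, where it overlapped with Pcgf5 at 7.33 ± 1.18. In 3B3L the order in serum was the same as in J1 except that Kdm2b (90.1 ± 0.431) stood above Pcgf2 (69.8 ± 1.93) and Pcgf1 (12.2 ± 0.283) above Pcgf3 (11.2 ± 0.230), and in 3B3L 2i Pcgf5 was the lowest at 3.76 ± 0.353 RPKM. These orders depend on the length used. With the length of the transcript with most reads, Pcgf1 held 8.08% of the summed PCGF level in J1 serum and Pcgf3 6.79%. The Kdm2b level also depends on a short noncoding transcript, given with Kdm2b below. Rnf2 message exceeded that of its paralog Ring1 in every library, by 8.20 ± 1.52 times in J1 serum, 5.74 ± 0.556 in J1 2i, 7.60 ± 0.852 in 3B3L serum and 6.96 ± 0.424 in 3B3L 2i (RPKM ratio).

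**Figure D2:**
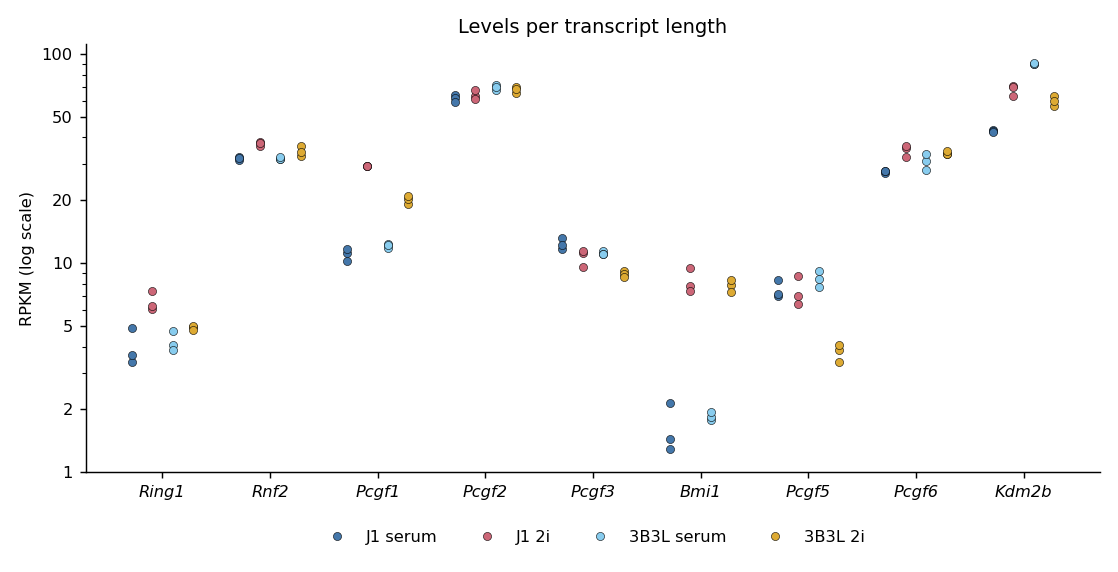
Level of each gene per transcript length in RPKM (y axis, log scale) in every library, coloured by group. Pcgf2, Kdm2b, Rnf2 and Pcgf6 lie above 26 RPKM in all 12 libraries, and Bmi1 shows the widest gap between media, from 1.29 to 2.16 RPKM in serum to 7.31 to 9.51 in 2i.

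Ring1 and Rnf2 encode the catalytic subunits. Ring1 (chr17:34020792-34024680, GRCm38.p6) stood at 6.40, 6.99 and 6.40 CPM in the J1 serum libraries and at 10.3, 10.7 and 12.5 CPM in J1 2i. In 3B3L it was 7.78, 6.52 and 6.13 CPM in serum and 8.44, 7.90 and 7.84 in 2i. The media did not overlap in either line, and the gap was wider in J1, where the log2 fold change was 0.76 ± 0.10 (SE, edgeR adjusted p = 4.44e-06), than in 3B3L, where it was 0.24 ± 0.10 (adjusted p = 0.0423). Rnf2 (chr1:151469398-151500991) was 89.4, 92.4 and 91.1 CPM in J1 serum, 104, 108 and 108 in J1 2i, 90.8, 89.6 and 91.4 in 3B3L serum and 104, 93.9 and 97.6 in 3B3L 2i. All 2i libraries lay above all serum libraries, by 0.23 ± 0.05 on the log2 scale in J1 (adjusted p = 3.45e-04) and 0.12 ± 0.05 in 3B3L (adjusted p = 0.0298). In 3B3L both calls were weak, and both were lost with a replicate block (adjusted p = 0.0620 and 0.0535) and under either other filter on low counts. The Ring1 call was also lost with DESeq2 (adjusted p = 0.0690) and length-corrected counts (adjusted p = 0.152), and the Rnf2 call when only the 6 libraries of 3B3L were fitted. The Ring1 call was lost on leaving out any J1 serum or 3B3L 2i library or 3B3L serum replicate 2 or 3 (log2 0.17 to 0.27), and the Rnf2 call on leaving out any J1 serum library, 3B3L serum replicate 1 or 2, or 3B3L 2i replicate 1 or 3 (log2 0.08 to 0.13).

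Bmi1 and Pcgf2 encode the PCGF subunits of canonical PRC1. Bmi1 lies at chr2:18677018-18686629 (GRCm38.p6, plus strand). Its counts were low in serum, at 2.48, 2.60 and 2.01 CPM in J1 (74 to 108 reads) and 2.69, 3.01 and 3.12 CPM in 3B3L. In 2i they were 12.0, 13.7 and 12.5 CPM in J1 and 13.7, 10.4 and 13.2 CPM in 3B3L. Every 2i library lay above every serum library of either line. The log2 fold change was 2.42 ± 0.12 in J1, or 5.36-fold (adjusted p = 7.01e-11), and 2.08 ± 0.12 in 3B3L, or 4.23-fold (adjusted p = 2.81e-10), and the lines did not differ detectably in this response (difference -0.34, 95% interval -0.72 to 0.03, adjusted p = 0.147). Pcgf2 (chr11:97688821-97702434) was among the highest of the family and flat. Its libraries read 93.1, 90.1 and 87.2 CPM in J1 serum, 90.0, 84.6 and 94.2 in J1 2i, 104, 96.3 and 96.7 in 3B3L serum and 92.9, 102 and 98.5 in 3B3L 2i, with the media overlapping in both lines. Its log2 fold change was -0.01 in J1 (95% interval -0.12 to 0.11, adjusted p = 0.901) and -0.02 in 3B3L (-0.13 to 0.10, adjusted p = 0.803). Per transcript length, Pcgf2 exceeded Bmi1 39.6 ± 10.8 times in J1 serum and 7.90 ± 1.37 times in J1 2i, and 37.6 ± 2.25 and 8.70 ± 0.747 times in 3B3L.

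The 250 bases upstream of the Bmi1 start annotated by RefSeq (GRCm38.p6, chr2:18676768-18677017, plus strand) are shown because this gene had the largest change of the family. CG dinucleotides are in capitals.
Bmi1 promoter: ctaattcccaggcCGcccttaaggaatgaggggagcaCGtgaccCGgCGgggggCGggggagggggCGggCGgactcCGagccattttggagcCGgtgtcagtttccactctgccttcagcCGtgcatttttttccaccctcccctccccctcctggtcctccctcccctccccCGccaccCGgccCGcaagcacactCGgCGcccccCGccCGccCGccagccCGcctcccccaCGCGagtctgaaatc
The stretch holds 21 CG dinucleotides. In the window from 250 bases before to 50 after the start there were 23, against a median of 7 over 32851 annotated windows of this length, and 21.5% of all windows held as many. The letters CACGTG, an E-box read the same on both strands, occurred in this window and in that of Pcgf2, but not in those of the other members with an entry, and in 7.15% of all windows. RefSeq windows were at hand for 8 of the 9 genes, all except Pcgf1.

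Commd3, whose annotated gene ends 787 bases before Bmi1 and which encodes a COMM-domain protein, was the nearest gene and rose with 2i too. In J1 it went from 6.44 ± 0.370 to 17.6 ± 1.02 CPM, and in 3B3L from 7.15 ± 0.256 to 17.2 ± 0.666 (log2 1.45 ± 0.07 and 1.27 ± 0.07, adjusted p = 4.63e-11 and 1.91e-10). Over the 12 libraries, the genes whose log2 CPM followed Bmi1 most closely were Nfib (a transcription factor, Euclidean distance 0.43), Zc3hav1 (an antiviral RNA-binding protein, 0.53) and Mtm1 (a phosphoinositide phosphatase, 0.58), where the median distance of the 17884 other genes was 3.95 and Commd3 ranked 306 with 1.57. Nfib stood at 3.87 CPM in J1 serum, 21.6 in J1 2i, 4.499 in 3B3L serum and 21.7 in 3B3L 2i.

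**Figure D3:**
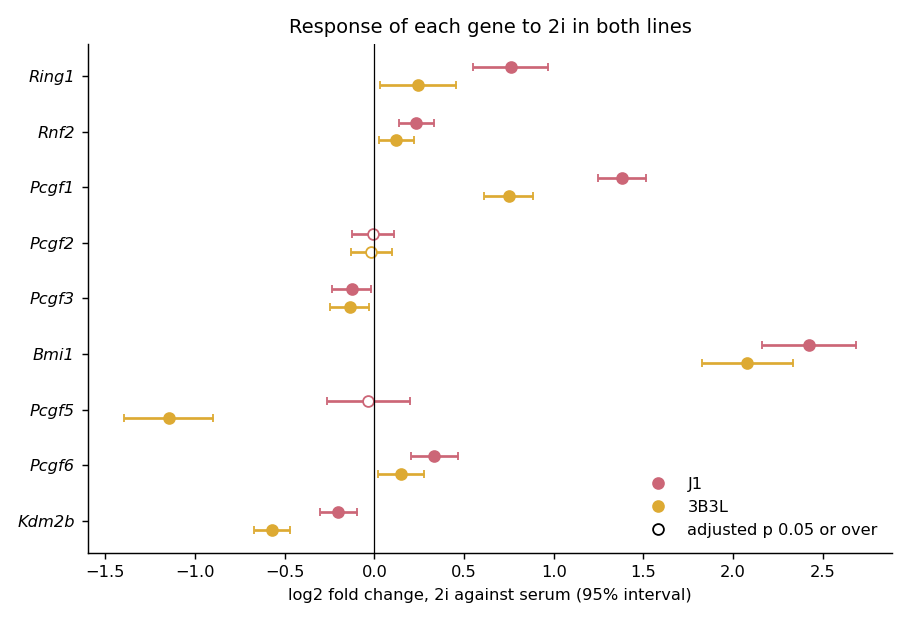
Log2 fold change of 2i against serum (x axis) for the 9 genes in J1 and 3B3L; bars are 95% intervals of the edgeR fit, filled points have an adjusted p under 0.05 and open points do not. Bmi1 lies farthest to the right in both lines (2.42 and 2.08), and the intervals of the lines do not overlap for Ring1, Pcgf1, Pcgf5 and Kdm2b.

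Pcgf1 and Kdm2b belong to the same variant complex, in which KDM2B binds unmethylated CpG through its zinc-finger CXXC domain. Pcgf1 (chr6:83077552-83080855) was 7.67, 8.49 and 8.75 CPM in J1 serum and 21.9, 20.9 and 22.0 in J1 2i, a log2 fold change of 1.38 ± 0.06 (2.60-fold, adjusted p = 2.37e-11). In 3B3L it was 8.93, 9.08 and 8.81 CPM in serum and 14.5, 15.2 and 15.3 in 2i, a log2 fold change of 0.75 ± 0.06 (1.68-fold, adjusted p = 4.11e-08). The groups did not overlap in either line. Part of the reads of Pcgf1 belonged to transcripts absent from the annotation used here. The transcripts with a known name held 57.1% to 92.7% of its reads, and on these alone Pcgf1 still rose, by 0.94 ± 0.10 in J1 (adjusted p = 3.20e-07) and 0.58 ± 0.10 in 3B3L (adjusted p = 7.58e-05). Its neighbour Tlx2, a homeobox gene 7327 bases away, was at 0 in the J1 serum libraries and 0.0258 to 0.0956 CPM in 3B3L serum, and stood at 13.2 to 13.9 CPM in J1 2i and 4.82 to 5.34 in 3B3L 2i.

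Kdm2b (chr5:122870664-122989270, minus strand) was the only gene of the family called between the lines in serum. It was 113, 103 and 111 CPM in J1 serum and 157, 153 and 155 in 3B3L serum, and 92.1, 97.1 and 95.1 CPM in J1 2i and 100, 108 and 105 in 3B3L 2i. In both lines the 2i libraries lay below the serum libraries, with changes of -0.20 ± 0.05 on the log2 scale in J1 (adjusted p = 0.00159) and -0.57 ± 0.05 in 3B3L (adjusted p = 2.58e-08). These are changes of read number. The fall in J1 turned into a rise of 0.65 ± 0.05 (adjusted p = 5.21e-08) when the counts were corrected for the mean effective length of the transcripts in each library. That length was 2404 to 2607 bases in J1 serum, 1304 to 1499 in J1 2i, 1703 to 1750 in 3B3L serum and 1713 to 1770 in 3B3L 2i. It weighs each transcript by its reads per length. Of these the short noncoding Kdm2b-008 held 17.95% to 22.1% in J1 serum and 55.6% to 59.3% in J1 2i. In 3B3L this transcript held 51.5% to 59.2% in serum and 39.5% to 43.0% in 2i. All length-corrected values and RPKM of Kdm2b thus depend on it, and its part was not tested. Kdm2a, the paralog of Kdm2b, named here after its values were seen, was not called in either line (log2 -0.02 and -0.02, adjusted p = 0.689 and 0.797).

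Transcript quantification placed the Kdm2b reads on different starts in the media. The gene has an upstream start, shared by the long coding transcripts Kdm2b-001, Kdm2b-201, Kdm2b-002 and Kdm2b-003 and 4 shorter models, and an internal start 88744 bases downstream that opens the short coding transcript Kdm2b-009 (Gencode models, NCBIM37, distances from the start of Kdm2b-001). The long forms encode the JmjC demethylase domain and the CXXC domain, and the short form lacks the JmjC domain. Reads were grouped by annotated start after their values had been seen, so the groups are described without a test. Transcripts from the upstream start took 69.7, 60.7 and 67.0 CPM in the J1 serum libraries and 12.9, 12.0 and 10.2 in J1 2i. In 3B3L they took 98.7, 102 and 97.5 CPM in serum and 20.04, 18.99 and 15.04 in 2i. The mean in serum was 5.61 times that in 2i in J1 and 5.51 times in 3B3L. Kdm2b-009 moved the other way. It took 33.6, 32.8 and 35.8 CPM in J1 serum and 58.9, 66.1 and 68.4 in J1 2i, and 34.3, 27.6 and 34.9 CPM in 3B3L serum and 65.5, 72.3 and 75.8 in 3B3L 2i, with means 1.89 and 2.21 times those in serum. As a share of the gene's reads, the upstream start held 60.3% ± 1.43 in J1 serum and 12.4% ± 1.60 in J1 2i, and 64.0% ± 2.14 and 17.3% ± 2.86 in 3B3L. Kdm2b-009 held 31.3% ± 1.27 and 68.0% ± 3.97 in J1, and 20.8% ± 2.41 and 68.2% ± 3.52 in 3B3L. No library of 1 medium overlapped with the other medium for either group of transcripts. These are shares of read number. Per transcript length, Kdm2b-009 held 22.7% to 24.97% of the gene in J1 serum and 24.8% to 32.0% in J1 2i, where the media overlapped, and 9.15% to 11.5% and 34.1% to 37.8% in 3B3L, where they did not. Models that start farther upstream held at most 3.01 reads in a library. Reads in exons that models share are divided between them by estimation, so a single model is less certain than a group of models from the same start region.

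**Figure D4:**
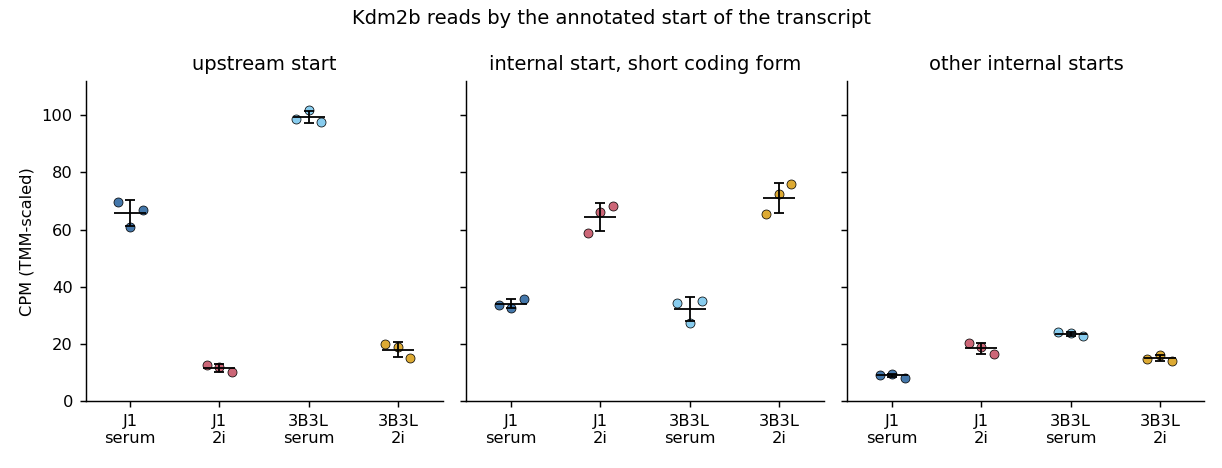
CPM of Kdm2b reads (y axis, from 0, on the same scale in each panel) assigned to transcripts from the upstream start (left), to the short coding transcript Kdm2b-009 (middle) and to other internal starts (right), by library; bars are mean and SD of 3 replicates. The upstream start lies at 60.7 to 102 CPM in serum and 10.2 to 20.04 in 2i, and Kdm2b-009 at 27.6 to 35.8 CPM in serum and 58.9 to 75.8 in 2i.

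RefSeq annotates a start in the upstream region and the internal start as well, 88749 bases apart. The sequence before each is shown because reads of the upstream transcripts and of Kdm2b-009 changed in opposite directions between media. Each stretch is 250 bases long (GRCm38.p6, minus strand, CG dinucleotides in capitals).
Kdm2b upstream start, chr5:122989100-122989349: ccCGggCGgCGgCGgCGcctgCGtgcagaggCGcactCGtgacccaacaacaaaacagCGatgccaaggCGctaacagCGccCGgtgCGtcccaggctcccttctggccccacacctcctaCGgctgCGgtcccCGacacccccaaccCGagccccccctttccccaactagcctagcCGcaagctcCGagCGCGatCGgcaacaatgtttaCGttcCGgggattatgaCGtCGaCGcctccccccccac
Kdm2b internal start, chr5:122900351-122900600: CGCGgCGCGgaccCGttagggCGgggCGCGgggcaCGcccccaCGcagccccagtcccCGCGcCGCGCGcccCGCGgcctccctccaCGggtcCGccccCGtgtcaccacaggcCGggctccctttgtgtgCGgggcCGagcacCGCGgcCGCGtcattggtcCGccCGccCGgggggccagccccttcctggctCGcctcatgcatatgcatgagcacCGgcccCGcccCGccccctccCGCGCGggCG
The upstream stretch holds 27 and the internal one 38 CG dinucleotides. With the 50 bases after the start, the internal window held 49, a number reached by 1.02% of all windows, and the upstream window 28, reached by 14.2%. Another start annotated 592 bases downstream of the upstream one had 18. Kdm2b-201 begins 566 bases after Kdm2b-001, so the upstream stretch shown does not lie directly before it. Kdm2b-201 took 31.9 to 39.8 CPM in J1 serum, against 9.24 to 29.4 for Kdm2b-001. In 3B3L serum these were 28.8 to 55.2 and 33.2 to 55.9 CPM. The proteins also begin differently, as the first 45 coding bases of the models show, with the start codon in capitals.
Kdm2b-001: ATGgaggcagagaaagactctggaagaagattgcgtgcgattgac
Kdm2b-201: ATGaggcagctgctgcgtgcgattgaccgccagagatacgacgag
Kdm2b-009: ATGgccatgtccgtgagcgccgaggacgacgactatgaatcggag
Kdm2b-201 shares the last 3899 of its 3912 coding bases with Kdm2b-001 (3930 coding bases), and Kdm2b-009 the last 2279 of its 2331, so the short form has 52 coding bases of its own.

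The share of each transcript in its gene's reads per length was tested across media within lines by an exact permutation test, for 22 transcripts of 7 genes that reached 5% in a group. None passed after adjustment between media or between lines at 0.05, and 6 and 3 had an unadjusted p under 0.05. The design allowed 400 arrangements and a smallest p of 0.005, which 2 Kdm2b transcripts reached. Over 22 transcripts, 2 at this smallest p could not pass adjustment on their own. The lack of calls thus does not show that shares were unchanged. Kdm2b-001 held 4.30% to 13.6% of the gene in J1 serum and 7.39% to 12.3% in 3B3L serum and was at 0 in all 6 libraries in 2i (mean difference -9.15 percentage points, exact two-sided permutation p = 0.005, adjusted p = 0.055). Kdm2b-201 changed by -10.1 points (p = 0.005, adjusted p = 0.055 in the exact permutation test) and Kdm2b-009 by 14.8 points as the mean of both lines (p = 0.01, adjusted p = 0.055). The noncoding transcript Pcgf3-003 changed by -10.1 points (exact permutation p = 0.01, adjusted p = 0.055), from 30.0% to 41.2% in J1 serum and 26.5% to 31.7% in 3B3L serum to 26.1% to 31.8% and 13.99% to 17.3% in 2i. For Bmi1 the shares of the 5 transcripts compared scattered widely at these counts, and their differences between media ranged from -4.91 to 4.14 points with adjusted p of 0.809 or more. Rnf2 and Pcgf6 have a single transcript in the files.

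A930024E05Rik, a noncoding gene 84 bases from the upstream end of Kdm2b and the nearest gene on that side, fell with the upstream Kdm2b transcripts. Its level was 3.67 ± 0.225 CPM in J1 serum, 0.492 ± 0.0922 in J1 2i, 4.97 ± 0.229 in 3B3L serum and 0.463 ± 0.0535 in 3B3L 2i, a log2 change of -2.89 ± 0.15 and -3.42 ± 0.15 (adjusted p = 1.14e-10 and 1.18e-11). Rnf34, an E3 ligase gene on the other side, rose by 0.13 ± 0.04 and 0.21 ± 0.04 (adjusted p = 0.0181 and 4.45e-04).

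Pcgf3, Pcgf5 and Pcgf6 encode the PCGF subunits of the remaining variant complexes. Pcgf5 (chr19:36348329-36460970) read 9.72, 9.91 and 11.5 CPM in J1 serum and 8.89, 11.9 and 9.54 in J1 2i, with the media overlapping (log2 -0.03, 95% interval -0.27 to 0.20, adjusted p = 0.803). In 3B3L it read 10.7, 12.7 and 11.5 CPM in serum and 5.39, 4.75 and 5.65 in 2i, a log2 fold change of -1.15 ± 0.12 (adjusted p = 2.72e-07). The response of 3B3L minus that of J1 was -1.12 ± 0.16 (adjusted p = 7.62e-05), so the response of Pcgf5 differed between the lines. Pcgf3 (chr5:108461259-108506976) lay at 57.5 to 60.2 CPM in J1 serum, 50.5 to 55.3 in J1 2i, 55.3 to 58.7 in 3B3L serum and 50.9 to 53.7 in 3B3L 2i, with log2 fold changes of -0.13 ± 0.05 (adjusted p = 0.0368) and -0.14 ± 0.05 (adjusted p = 0.0246). Corrected for transcript length, the changes were -0.21 ± 0.07 (adjusted p = 0.0119) and -0.34 ± 0.07 (adjusted p = 4.39e-04). With a replicate block the J1 call was lost (adjusted p = 0.0504). Without any J1 serum library or J1 2i replicate 3 the J1 call was lost (log2 -0.14 to -0.09), as was the 3B3L call without 3B3L serum replicate 2 or 3 or 3B3L 2i replicate 3 (log2 -0.13 to -0.12). Pcgf6 (chr19:47033617-47050939), whose complex contains the MAX and MGA DNA-binding proteins, rose from 51.9, 53.5 and 53.2 to 68.3, 69.5 and 62.0 CPM in J1 (log2 0.33 ± 0.06, adjusted p = 1.77e-04). In 3B3L it went from 53.9, 59.0 and 64.1 to 64.6, 65.1 and 66.4 CPM (log2 0.15 ± 0.06, adjusted p = 0.0448). That call was lost with a replicate block (adjusted p = 0.0609), with DESeq2 (adjusted p = 0.0641), with length-corrected counts (adjusted p = 0.0782), with DESeq2's size factors, under either other filter and when only the 6 libraries of 3B3L were fitted. It was also lost without any J1 serum, 3B3L 2i or 2 of the 3B3L serum libraries (replicates 1 and 2) and without J1 2i replicate 1 (log2 0.09 to 0.16).

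Within the PCGF class, the makeup of the transcript pool shifted in both lines. Each gene's share was its RPKM over the sum of the 6 PCGF genes, and 7 shares, including that of Ring1 in the RING pair, were compared between media with an exact two-sided permutation test within lines (400 arrangements, smallest p 0.005). The lengths behind RPKM came from transcripts with a known name only. These held 57.1% to 92.7% of the reads of Pcgf1 and 84.8% to 93.9% of those of Pcgf2. Bmi1 rose from 1.35% ± 0.383 to 5.33% ± 0.669 in J1, and in 3B3L from 1.38% ± 0.0345 to 5.51% ± 0.352. Pcgf1 rose from 9.12% ± 0.666 to 18.999% ± 0.291 in J1, and in 3B3L from 9.07% ± 0.234 to 14.1% ± 0.302. Pcgf2 fell from 50.6% ± 1.67 to 41.5% ± 2.47 in J1, and in 3B3L from 52.0% ± 1.84 to 47.8% ± 0.922, while its own level was not called. Pcgf3 fell from 10.2% to 6.96% in J1, and in 3B3L from 8.35% to 6.23%, and Pcgf5 from 6.16% to 4.75% in J1, where its own level was not called, and in 3B3L from 6.29% to 2.64%. These 5 shares each gave p = 0.005, the smallest the exact permutation test allowed, and adjusted p = 0.007. Pcgf6 held 22.6% and 22.5% in J1 and 22.9% and 23.7% in 3B3L (exact permutation p = 0.590, adjusted p = 0.590). Without length correction its share rose by 2.05 points as the mean of both lines (exact permutation test, adjusted p = 0.02). The levels of the shares also depend on the length used. Pcgf3 in J1 serum held 26.3% without length correction and 6.79% with the length of the transcript with most reads. Ring1 made up 11.1% ± 2.01 of the RING pair in J1 serum, 14.9% ± 1.29 in J1 2i, 11.7% ± 1.20 in 3B3L serum and 12.6% ± 0.687 in 3B3L 2i (exact permutation p = 0.030, adjusted p = 0.035). The Ring1 call was lost without any J1 2i library, without 3B3L serum replicate 2 or 3, or without 3B3L 2i replicate 2 (adjusted p = 0.0642 to 0.0875).

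**Figure D5:**
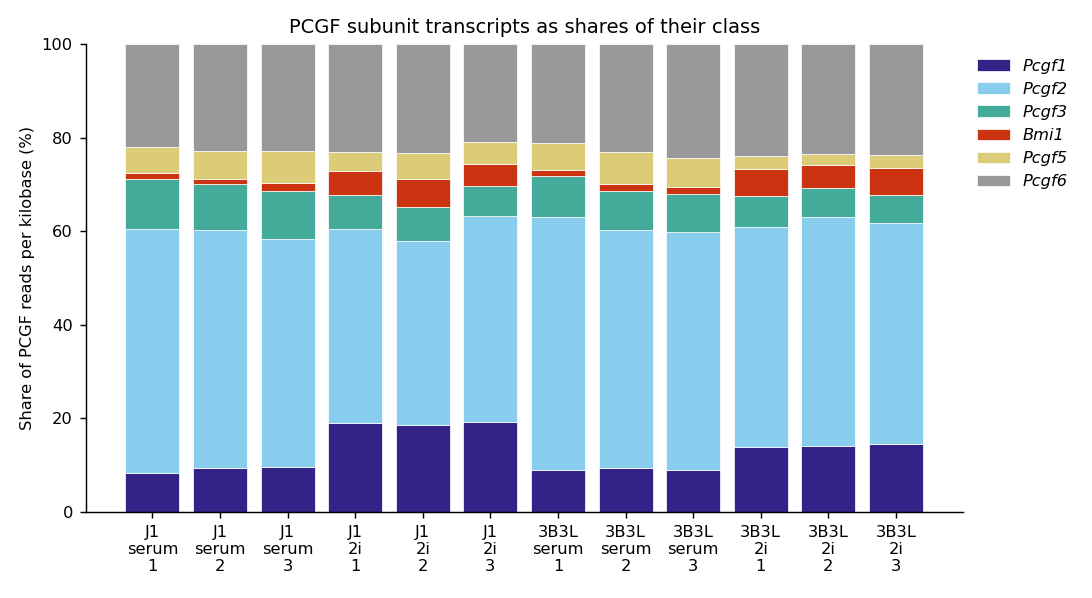
Share of each PCGF gene in the summed reads per kilobase of the 6 genes (y axis, percent) in every library, one bar per library. In 2i the Bmi1 band widens from 1.07% to 1.78% in serum to 4.82% to 6.09%, the Pcgf1 band widens as well, and the Pcgf2 band narrows, in both lines.

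The lines were compared in each medium. In 2i 5 of the 9 genes differed, 1 higher and 4 lower in 3B3L than in J1, where 45.9% of all tested genes were called (23.0% higher, 22.9% lower), and 5 of 9 did not overlap, beside 52.6% of all. Pcgf5 differed by -0.95 ± 0.12 (adjusted p = 7.94e-06), Pcgf1 by -0.52 ± 0.06 (adjusted p = 4.25e-06) and Ring1 by -0.47 ± 0.10 (adjusted p = 7.93e-04) on the log2 scale, each without overlap of libraries. Rnf2 at -0.12 ± 0.05 (adjusted p = 0.0484) and Kdm2b at 0.14 ± 0.05 (adjusted p = 0.0266) were marginal. The Rnf2 call was lost without any J1 2i library, any 3B3L serum library or 3B3L 2i replicate 2 or 3 (log2 -0.13 to -0.11), and the Kdm2b call without J1 serum replicate 1 or 3, J1 2i replicate 1 or 3B3L 2i replicate 2 or 3 (log2 0.09 to 0.13). Corrected for transcript length, Kdm2b was lower in 3B3L (log2 -0.18, adjusted p = 0.0123), and Pcgf3 was called as lower as well (log2 -0.27, adjusted p = 0.00466). In serum only Kdm2b was called among the 9, higher in 3B3L by 0.51 ± 0.05 (1.42-fold, adjusted p = 8.21e-07) and by 1.07 ± 0.05 when corrected for transcript length (adjusted p = 8.70e-09), where 38.7% of all tested genes were called (21.5% higher). The libraries of the lines did not overlap in serum for 5 of the 9 genes, beside 50.9% of all tested genes. The reads behind this gap came from the upstream start of Kdm2b, at 99.3 ± 2.19 CPM in 3B3L against 65.8 ± 4.58 in J1, and from other internal starts, at 23.6 ± 0.751 against 9.06 ± 0.625, whereas Kdm2b-009 overlapped between the lines at 27.6 to 34.9 and 32.8 to 35.8 CPM.

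The 2i response itself was then compared between the lines. The difference was called for 4 of the 9 genes, all lower in 3B3L, where 34.7% of all tested genes were called and 18.3% in this direction. Besides Pcgf5, these were Pcgf1 at -0.63 ± 0.09 (adjusted p = 7.91e-05), Ring1 at -0.52 ± 0.14 (adjusted p = 0.00959) and Kdm2b at -0.37 ± 0.07 (adjusted p = 5.61e-04). The Pcgf1 call was lost on transcripts with a known name alone (-0.36 ± 0.14, adjusted p = 0.0538), and the Ring1 call with length-corrected counts (-0.50, adjusted p = 0.0601). With the same correction the difference for Kdm2b was -1.25 ± 0.07 (adjusted p = 7.07e-08), with a rise of 0.65 in J1 and a change of -0.59 in 3B3L. H2-Ke6, a neighbour of Ring1 1353 bases away that was added after its values had been seen, had a similar pair of responses, 0.59 ± 0.08 in J1 (adjusted p = 6.69e-06) and 0.07 ± 0.08 in 3B3L (adjusted p = 0.475).

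Of the other neighbours with values, Ina and Cisd3 did not change as their members did, and Mfsd7a was too low to judge. The nearest genes on both sides of Rnf2 and Pcgf5 were not found by name in the count table. Ina, a neurofilament gene 8290 bases from Pcgf6, fell in both lines (log2 -3.46 ± 0.07 and -2.17 ± 0.07, adjusted p = 3.37e-15 and 1.40e-13) while Pcgf6 rose. Cisd3, an iron-sulfur protein gene 196 bases from Pcgf2, rose (0.48 ± 0.07 and 0.74 ± 0.07, adjusted p = 1.77e-05 and 1.69e-07) while Pcgf2 was not called. Mfsd7a, 10494 bases from Pcgf3, had group means of 0.43 to 0.51 CPM. It was not called in either line (0.16 ± 0.34 and -0.27 ± 0.35, adjusted p = 0.692 and 0.510). These SEs exceed the changes of Pcgf3, so a shared change cannot be judged.

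The partners of these subunits were counted from lists of other PRC1 and PRC2 genes, to be read against the 33.2% of all tested genes that rose and 32.9% that fell in J1, and 32.7% each way in 3B3L. Of 10 canonical PRC1 partners, 4 rose and 3 fell with 2i in J1 and 4 rose and 4 fell in 3B3L, with median log2 fold changes of 0.12 and 0.03. Phc1, a polyhomeotic subunit, fell from 743 to 379 CPM in J1, and in 3B3L from 814 to 320 CPM (log2 -0.97 ± 0.04 and -1.35 ± 0.04), and Scmh1 fell in both lines (-0.53 ± 0.08 and -0.64 ± 0.08). Scml2 rose by 0.82 ± 0.10 in J1 and Cbx8 by 2.12 ± 0.27 in 3B3L, from 0.523 to 2.28 CPM. Of 23 variant PRC1 partners, 10 rose and 10 fell in J1 and 12 rose and 5 fell in 3B3L, with medians of 0.13 and 0.15. Bcor, the scaffold of the PCGF1 complex, fell in both lines (-1.26 ± 0.05 and -0.61 ± 0.05), as did Yaf2 (-0.48 ± 0.09 and -1.19 ± 0.09), a binding partner of the RING subunits. The largest rises in this list were those of Bcorl1 (0.89 ± 0.07) and Fbrsl1 (0.88 ± 0.06) in J1 and of Wdr5 (0.89 ± 0.05) and Fbrsl1 (0.68 ± 0.06) in 3B3L.

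Among 12 PRC2 subunits 4 rose and 5 fell in J1 and 6 rose and 4 fell in 3B3L, with medians of -0.01 and 0.09. Phf19, which guides PRC2 to CpG islands, changed by -2.55 ± 0.09 in J1 and -2.99 ± 0.09 in 3B3L, and Jarid2, a PRC2 cofactor, by -1.15 ± 0.04 and -0.80 ± 0.04. The methyltransferase Ezh2 (0.76 ± 0.05) and Phf1 (0.73 ± 0.10) rose most in J1, and Phf1 (0.66 ± 0.10) and Suz12 (0.53 ± 0.08) in 3B3L. Of 14 genes known as targets of PRC1, mainly germline genes and the Cdkn2a locus, 3 rose and 9 fell in J1 and 4 rose and 10 fell in 3B3L, with medians of -0.58 and -0.82. Over all tested genes 33.2% rose and 32.9% fell in J1, and 32.7% went each way in 3B3L. The list of targets held Cdkn2a, the tumour suppressor gene that BMI1 is known for repressing, which was at 6.95 CPM in J1 serum, 28.97 in J1 2i, 4.36 in 3B3L serum and 25.2 in 3B3L 2i (log2 2.06 ± 0.09 and 2.53 ± 0.09). It is named after its values were seen.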

How the data were processed

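RNA-seq of 12 libraries, 3 biological replicates of each line and medium, was analysed. The authors quantified reads with Sailfish on mm10 transcript models and summed them per gene with tximport. The deposited gene table holds estimated counts, and the deposited transcript files hold estimated read numbers, effective lengths and TPM (a level per transcript length that keeps no depth), of which the TPM were not used. Gene counts were rounded and fitted over all 12 libraries with edgeR 4.0.16 (R 4.3.3, quasi-likelihood test, TMM scaling, filterByExpr), with Benjamini-Hochberg adjustment over 17885 genes at 0.05. The biological coefficient of variation was 6.49%. DESeq2 1.42.0 and other settings were alternatives. The edgeR and permutation code was tested on simulated data. CPM used TMM library sizes, and RPKM also the effective lengths as deposited. Transcripts were matched to Gencode vM1 models (90.4% of transcripts), and positions and promoters came from RefSeq (GRCm38.p6). Transcript and class shares were compared by exact permutation. SEs and 95% intervals of edgeR include the spread between replicates, whereas the floor of 3 counts covers counting error only.

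Named were the 9 genes, Dnmt3a, Dnmt3b and Dnmt3l, and the 3 genes closest to Bmi1. The nearest RefSeq gene on each side of a member was named only where it passed the filter. The 2 highest and 2 lowest called genes of each subunit list were named per medium contrast. A gene that this rule names is not reported here. The members and lists were chosen with earlier results of these data known. Which sequencing pool held which library is not given in the sources used here.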

Additional observations from a re-analysis of the deposited data

Results flagged for a closer look

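The response to 2i differed between the lines for 4 of the 9 genes by the test of the difference itself (edgeR interaction term, 3B3L minus J1 on the log2 scale). The values were -0.52 for Ring1, -0.63 for Pcgf1, -1.12 for Pcgf5 and -0.37 for Kdm2b (adjusted p = 0.00959, 7.91e-05, 7.62e-05 and 5.61e-04), and the difference was lower in 3B3L each time. In J1 the gap between media was wider for the rises of Ring1 and Pcgf1, and in 3B3L for the fall of Pcgf5. For Kdm2b the read number fell further in 3B3L, but with counts corrected for transcript length it rose in J1 (0.65) and fell in 3B3L (-0.59), a difference of -1.25.

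For a pair of noncoding Kdm2b models, Kdm2b-008 and Kdm2b-017, the share of the gene's reads per length changed in opposite directions in the lines. These shares did not overlap between media in either line, and the difference between the lines was not tested. The share of Kdm2b-008 in the gene's reads per length went up by 37.1 percentage points in J1, from 17.95% to 22.1% in serum to 55.6% to 59.3% in 2i, and changed by -14.2 points in 3B3L, from 51.5% to 59.2% to 39.5% to 43.0%. That of Kdm2b-017 changed by -11.9 points in J1 and 6.002 points in 3B3L. In CPM Kdm2b-017 overlapped between media in 3B3L, at 2.62 to 5.31 in serum and 3.67 to 4.81 in 2i. In J1 it took 3.86 to 5.14 CPM in serum and 2.32 to 3.70 in 2i. Its share in 3B3L thus rose without a clear rise in its own reads. Kdm2b-008 is 550 bases long and took 133 reads on average in J1 serum, 627 in J1 2i, 748 in 3B3L serum and 399 in 3B3L 2i, and read numbers are not corrected for its short length.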

How the results depend on the processing

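The number of genes called with 2i in J1 was 6 or 7 under every alternative. In 3B3L the 8 calls became 5 without a filter on low counts, 5 with at least 10 counts in every library and 5 with a replicate block, and 4 to 8 on leaving out 1 library (4 or 5 without any 1 J1 serum library, 3B3L serum replicate 2, or 3B3L 2i replicate 1 or 3). Between lines in 2i the 5 calls became 3 without the filter and 3 with the 6 libraries compared, and 3 to 6 on leaving out 1 library (3 without J1 2i replicate 1 or 3B3L 2i replicate 2 or 3). In serum the 1 call became 3 with at least 10 counts in every library, 2 with length offsets and 1 to 3 on leaving out 1 library (3 without J1 2i replicate 2 or 3, 2 without 3B3L serum replicate 1). Among the transcript shares, 0 were called between media, but 4 when reads replaced reads per length, and 0 to 5 on leaving out 1 library (3 without J1 serum replicate 2, 5 without 3B3L 2i replicate 2). Of 856 single-gene values under alternatives, 743 kept direction and call, 71 lost the call, 13 gained it and 29 changed sign. Signs turned with transcript length offsets for Kdm2b (0.65 in J1, -0.18 between lines in 2i) and Pcgf2 (0.052 in J1), with at least 10 counts for Rnf2 between lines in serum (0.00087), with known transcripts alone, an alternative chosen after seeing the data, for Pcgf1 between lines in serum (-0.053) and for the Pcgf2 difference in response (0.018), and without the filter for the latter (0.0021). Except for Kdm2b these effects were not called. On leaving out 1 library, uncalled effects crossed 0 for Pcgf2 with 2i in J1 (-0.045 to 0.032) and 3B3L (-0.074 to 0.021), Pcgf5 in J1 (-0.17 to 0.054), Bmi1 (-0.11 to 0.055) and Pcgf6 (-0.076 to 0.0046) between lines in 2i, Ring1 (-0.061 to 0.11), Rnf2 (-0.019 to 0.0060) and Pcgf3 (-0.041 to 0.00068) between lines in serum, and the difference in response of Pcgf2 (-0.065 to 0.031) and Pcgf3 (-0.059 to 0.012). The cause was not tested. The replicate numbers did not pair the samples (correlation of deviations -0.31 to 0.11, median -0.07), and the replicate block left 5 calls in 3B3L and 6 in J1. Bmi1 in serum rested on 74 to 126 reads, which limits its transcript shares.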
